A study of Saccharomyces cerevisiae with 24 samples.

Results

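The genes described here are the ribosome biogenesis factors of budding yeast whose standard name is UTP, NOP, RRP, DBP, NOC, NSA, NUG or RIX followed by a number. The name rule found 70 of the 6251 open reading frames (ORFs) in the deposited table: 18 UTP, 18 RRP, 17 NOP, 9 DBP, 3 NOC, 2 NSA, 2 RIX and 1 NUG gene. Of these, 69 had values in all 6 groups of arrays and were tested. The exception was DBP1, which had no value on the rox1 deletion arrays. The rule goes by name alone, and so it also took in 7 subunits of the RNA exosome and 3 DEAD-box proteins of mRNA metabolism, which are described separately. Expression was measured on 24 two-colour Agilent arrays, 4 per group, each with RNA of hydrogen peroxide-treated cells in 1 channel and RNA of untreated cells in the other. Wild type cells (BY4741) were given the acute protocol (0.4 mM for 1 h), the adapted protocol (45 min in 0.1 mM, then 1 h in 0.4 mM) or the pretreatment alone (0.1 mM for 45 min). Strains without YAP1, MGA2 or ROX1, from the yeast deletion collection, were given the pretreatment alone. The untreated RNA of wild type arrays came from a portion of the same culture. For the deletion arrays the labels set treated deletion cells against untreated cells without naming the strain of the untreated RNA, which was read as the deletion strain itself. For yap1, the paper's text instead describes deletion cells set against wild type cells. If the untreated RNA was wild type, effects of strain and treatment cannot be told apart in the values of that strain or in its difference from wild type cells.

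A eukaryotic ribosome is assembled in the nucleolus, where RNA polymerase I transcribes a long precursor of the rRNAs. The UTP proteins join the precursor while it is still being made, first the UtpA complex and then UtpB, and with the U3 snoRNA they form the small subunit processome, in which the 18S rRNA of the 40S subunit is folded and cut out. Of the 52 other members, 26 act in a similar way on the precursor of the 60S subunit, as scaffolds, helicases, GTPases and methyltransferases. The rest include 10 factors of the 40S subunit and 7 exosome subunits, so UTP against other members is not 40S against 60S. The set is a textbook example of genes that growing yeast expresses together.

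The value used throughout is a log2 ratio of intensities, treated over untreated, so that -1 is a halving relative to the other mRNAs on the array, and it cannot tell a smaller share of the mRNA from less RNA per cell. A group's value is the mean of its 4 arrays with the standard error (SE) of a limma fit over all arrays and 4373 ORFs. An ORF passed the test at a Benjamini-Hochberg adjusted p under 0.05, and "lowered", "raised", "fell" and "rose" are used for ORFs that passed. In each group the treated RNA was Cy5 on 2 arrays and Cy3 on the other 2. The 3 deleted genes had no value on the arrays of their own strain and a value on 4 of 4 arrays in each other group, but 600, 1866 and 631 ORFs in all had none on the mga2, rox1 and yap1 deletion arrays, against 9 to 32 in wild type groups.

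Acute treatment lowered nearly the whole set. Of the 69 tested members 67 were lowered (97.1%) and none was raised, against 41.3% of all ORFs lowered. All 69 fitted values were below 0, from -3.18 to -0.12, with a median of -1.02 where that of all ORFs was -0.08. Of the 69, 29 lay at or below the 10th percentile of all ORFs (-1.19) and 57 at or below the 25th (-0.56). The adapted protocol, in which the same high dose followed the mild one, lowered 2 of the 69 (2.9%, against 7.27% of all ORFs). None passed the test after the pretreatment alone, which lowered 0.389% of all ORFs and raised 0.617%.

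**Figure D1:**
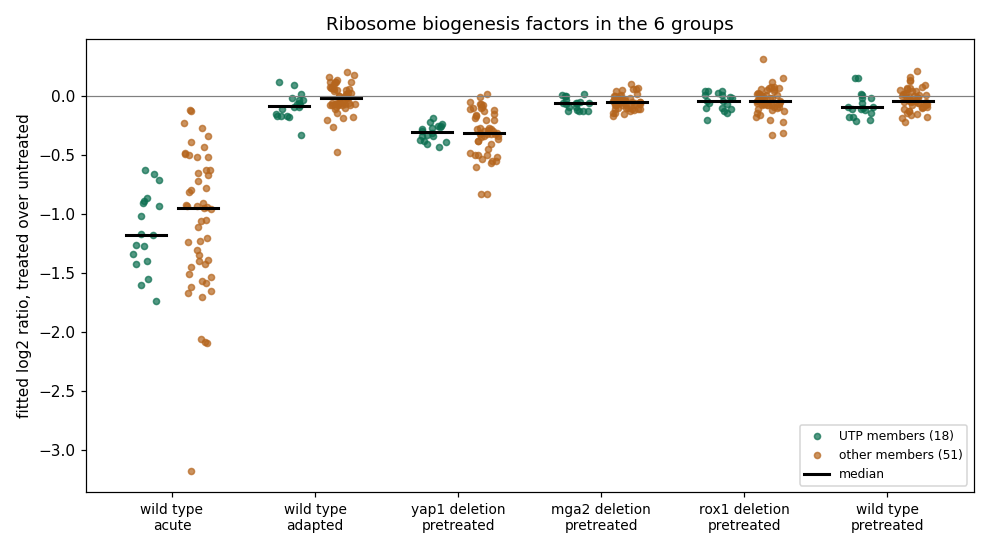
Fitted log2 ratio of treated over untreated cells for each tested member (points) in the 6 groups, with UTP members left of the other members and a black bar at each median. The acute values reach from -3.18 to -0.12, the yap1 deletion values have a median of -0.31, and the other groups lie around 0.

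All 18 UTP members were lowered by acute treatment, from -1.74 to -0.63. The UtpA complex binds the earliest part of the precursor and is also called t-UTP for its link to rDNA transcription. Of its subunits, the 6 that the name rule took in were all lowered, with a median of -1.28. UTP8 read -1.17, -1.55, -1.66 and -1.31 on the 4 acute arrays, a fall of 1.42 ± 0.08 or 2.68-fold (SE, adjusted p = 1.62e-13), with little spread between arrays. UTP10, a long HEAT-repeat scaffold, read -1.65, -1.89, -1.24 and -0.80 (fitted -1.40 ± 0.09, adjusted p = 7.39e-12). UTP4 had the lowest fitted value of the 6, -1.60 ± 0.14 (adjusted p = 5.83e-10), and UTP5 the one nearest 0, -0.66 ± 0.08 (adjusted p = 1.36e-07). The UTP4 mean joined unlike arrays, at -2.65 and -2.70 with treated RNA in Cy5 and at -0.48 and -0.55 with it in Cy3.

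In UtpB, a complex of tandem WD-repeat proteins that binds next to the U3 snoRNA, the 4 subunits that the name rule took in were all lowered. Their median was -1.14. UTP21 read -1.02, -1.56, -1.39 and -1.10 (fitted -1.27 ± 0.10, adjusted p = 6.63e-11) and UTP18 -0.99, -1.25, -0.55 and -0.75 (fitted -0.89 ± 0.10, adjusted p = 4.25e-08), both below 0 on every array. UTP13 had about the same mean as UTP21, -1.26 ± 0.13, from arrays as far apart as -2.43 and -0.29.

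The other UTP members include UTP20, UTP22 and UTP23, and all 8 were lowered with a median of -1.05. UTP20, a very large HEAT-repeat protein, had the lowest value of all UTP members, -1.74 ± 0.13 or 3.34-fold lower (adjusted p = 3.03e-11), from -2.49 and -2.88 on the Cy5 arrays and -0.56 and -1.04 on the Cy3 arrays. UTP22, which binds RRP7 in the UtpC complex, read -1.74, -1.77, -1.43 and -1.25 (fitted -1.55 ± 0.09, adjusted p = 3.25e-13). UTP23, which is needed for the release of the snR30 snoRNA, fell by 1.34 ± 0.15 (adjusted p = 2.61e-08). UTP7 and UTP11, both processome subunits, had small fitted values of -0.63 ± 0.18 (adjusted p = 0.00281) and -0.71 ± 0.12 (adjusted p = 1.54e-05). They were not below 0 on every array: with treated RNA in Cy3, UTP7 read 0.21 and 0.13 and UTP11 read 0.14 and -0.09. Without the dye term in the fit both missed the threshold (adjusted p = 0.102 and 0.0754).

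The same fall ran through the 60S factors, all 26 of which were lowered, with a median of -1.01. DBP3, a DEAD-box protein of early 60S processing, read -2.05, -2.43, -2.24 and -1.60 (fitted -2.08 ± 0.10 or 4.23-fold lower, adjusted p = 3.57e-14). NOP13, a nucleolar RNA-binding protein, had -2.06 ± 0.21 (adjusted p = 5.35e-09), and on its arrays the order of the dyes was the opposite of that of most members, with -1.49 and -1.78 for Cy5 and -2.68 and -2.31 for Cy3. RRP8, a methyltransferase of the 25S rRNA, fell by 1.70 ± 0.09 (adjusted p = 1.03e-13). The GTPase NUG1 read -1.76, -1.80, -1.75 and -1.37 and had the smallest SE of these, 0.07 around -1.67 (adjusted p = 8.04e-15).

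NOP7, the yeast pescadillo protein, and RRP1 are both needed to process the 27S precursor of the 60S rRNAs. Their fitted values were -1.62 ± 0.12 (adjusted p = 6.07e-11) and -1.58 ± 0.10 (adjusted p = 3.57e-12). NOP53, a late 60S factor that recruits the exosome, had the value nearest 0 among 60S factors, -0.49 ± 0.09 (adjusted p = 4.65e-05), with -0.79 and -1.28 on Cy5 arrays and 0.28 and -0.15 on Cy3 arrays, and it too missed the threshold without the dye term (adjusted p = 0.0978).

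RRP5 and RRP12, which serve both subunits, were among the lowest members. RRP5, an RNA-binding scaffold that spans the site where the 40S and 60S precursors are separated, read -2.56, -2.93, -1.58 and -1.28 (fitted -2.09 ± 0.12 or 4.26-fold lower, adjusted p = 6.04e-13). RRP12, which takes part in nuclear export of pre-ribosomes, fell by 1.51 ± 0.10 (adjusted p = 3.94e-12). The box C/D and H/ACA snoRNPs guide rRNA methylation and pseudouridylation. The 4 members among their core proteins were all lowered, with a median of -1.48. NOP1, the fibrillarin methyltransferase, read -1.84, -2.24, -1.16 and -1.36 (fitted -1.65 ± 0.11, adjusted p = 1.19e-11). Its C/D partner NOP56 had a similar mean of -1.57 ± 0.19 (adjusted p = 1.39e-07) with a far wider spread, -2.97 and -2.37 on Cy5 arrays against -0.39 and -0.57 on Cy3 arrays. NOP10 of the H/ACA particle had the value nearest 0 of the 4, -0.72 ± 0.11 (adjusted p = 3.58e-06).

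Among the 40S factors without a UTP name 9 of 10 were lowered, with a median of -0.91. DBP8, a DEAD-box helicase of the small subunit pathway, read -1.03, -1.20, -1.74 and -2.15 (fitted -1.53 ± 0.10, adjusted p = 3.74e-12). RRP7, the UtpC partner of UTP22, was the member nearest 0: it read -0.70 and -0.98 on Cy5 arrays but 0.79 and 0.42 on Cy3 arrays, a fitted value of -0.12 ± 0.14 (adjusted p = 0.453). The 2 dye orientations thus gave RRP7 opposite signs, while UTP22 was at -1.25 or lower on each array.

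The exosome subunits, which trim and degrade many nuclear RNAs besides rRNA precursors, had the median closest to 0 of all roles, -0.34, with 6 of 7 lowered. The catalytic subunit RRP6, found only in the nuclear exosome, had the lowest value, -0.80 ± 0.09 (adjusted p = 1.72e-08). RRP42 of the ring read -0.13, -0.16, -0.03 and -0.20, 4 small values of 1 sign, and did not pass (fitted -0.13 ± 0.07, adjusted p = 0.0841). The cap subunit RRP4 passed at -0.34 ± 0.09 (adjusted p = 0.00144). The ring subunits RRP43 (-0.23 ± 0.08, adjusted p = 0.0173) and RRP45 (-0.27 ± 0.11, adjusted p = 0.0311) passed narrowly. RRP43 missed the threshold without acute replicate 2 (adjusted p = 0.109) or 4 (0.0811) and RRP45 without acute replicate 1 (0.157) or 2 (0.152). Both also missed it without the dye term (0.168 and 0.105) and with arrays centred on their medians (0.102 and 0.115). So did RRP43 with only the acute arrays in the fit (0.0609) and RRP45 with loess within each array (0.0645).

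**Figure D2:**
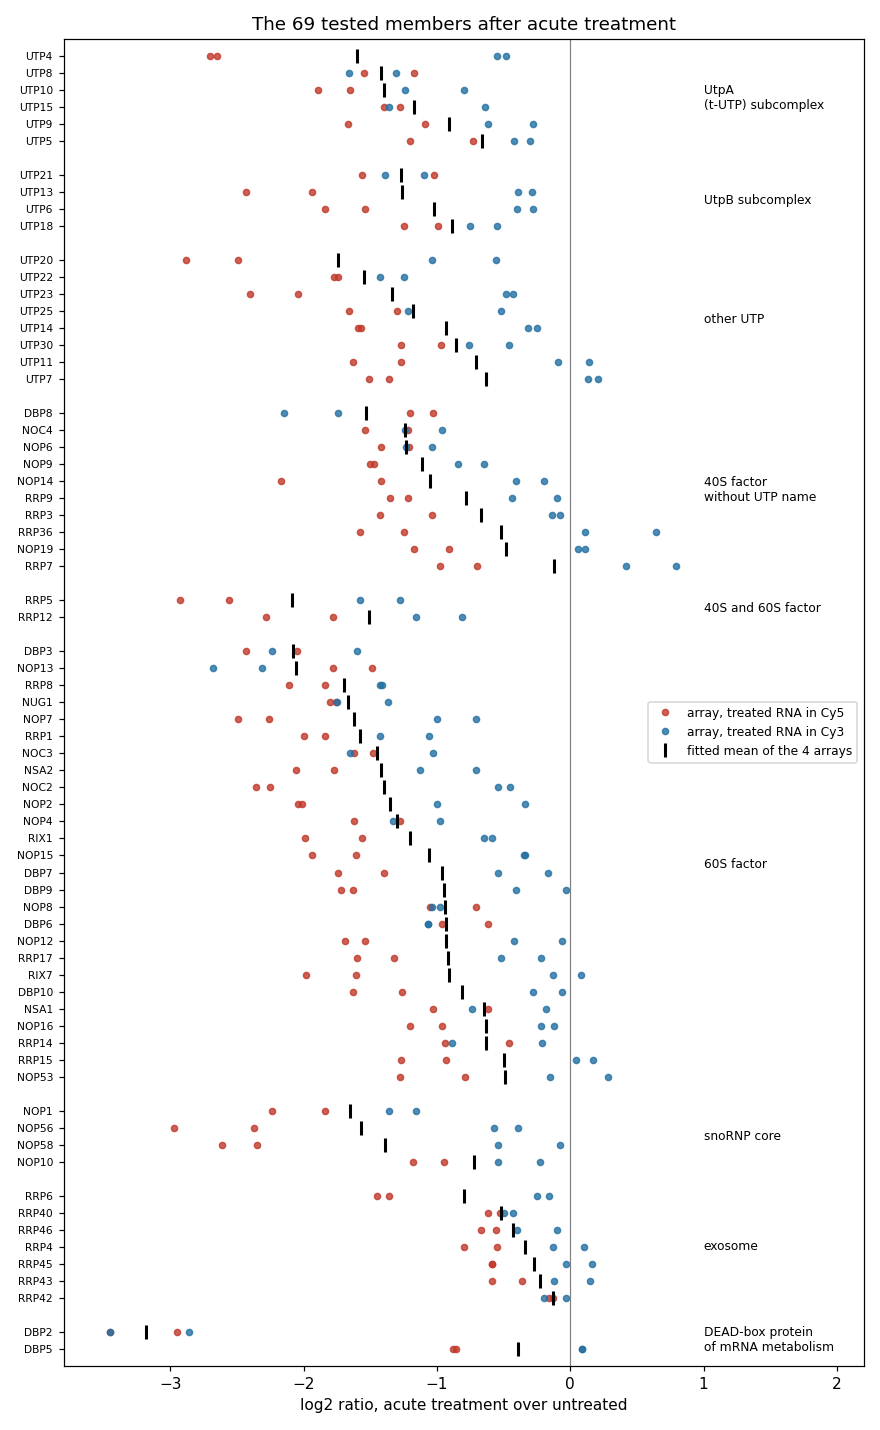
Log2 ratio of acutely treated over untreated cells for the 69 tested members, grouped by role, on each of 4 arrays (red, treated RNA in Cy5; blue, treated RNA in Cy3) with the fitted mean as a black bar. Most members lie further left on the Cy5 arrays, the exosome subunits have the median nearest 0 of all roles, and DBP2 is lowest at -3.18.

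The lowest and the highest acute value of the 70 members belonged to 2 DEAD-box proteins that work mainly on mRNA. DBP2, an RNA helicase of mRNP assembly and mRNA decay, had treated intensities of 442.7, 583.0, 581.2 and 513.0 on the acute arrays, against untreated intensities of 4849.0, 4506.1, 4219.7 and 5618.6. The log2 ratios were -3.45, -2.95, -2.86 and -3.45, a fall of 3.18 ± 0.13 or 9.06-fold (adjusted p = 3.35e-15), and the channels did not overlap in either dye orientation. This was the fifth lowest of the 4373 fitted values. The 2 values of -3.45 were alike because DBP2 held rank 4 from the bottom on both arrays and the ratios deposited for a group had the same quantiles on each of its arrays, so the spread of so low a gene is understated.

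DBP1, a helicase close to the translation initiation factor Ded1, went the other way. It read 1.31, 1.04, 1.29 and 0.83 on the acute arrays, above 0 on all of them, and rose by 1.12 ± 0.10 or 2.17-fold in a fit of the 12 wild type arrays alone (adjusted p = 3.25e-07 over 6202 ORFs, of which 36% were raised). It read 0.09, 0.18, 0.41 and 0.68 on the adapted arrays (fitted 0.34 ± 0.10, adjusted p = 0.0284) and 0.06, 0.07, 0.10 and 0.17 on the pretreated ones (fitted 0.10 ± 0.10, adjusted p = 0.68). The acute value exceeded the adapted one by 0.78 ± 0.14 (adjusted p = 0.000305). On the deletion arrays, where it was not tested, it read 0.61, 0.61, 0.22 and 0.55 without YAP1 and 0.17, -0.20, -0.16 and 0.21 without MGA2. DBP5, the helicase of mRNA export, fell by 0.39 ± 0.11 on acute treatment (adjusted p = 0.00422), with -0.86 and -0.88 on Cy5 arrays but 0.09 on both Cy3 arrays, and missed the threshold without the dye term (adjusted p = 0.0821).

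The members' values differed by the dye that carried the treated RNA in every group. In acutely treated cells the median of the 69 members was -1.45 with treated RNA in Cy5 and -0.46 with it in Cy3. In pretreated wild type cells the medians of the 2 orientations were -0.30 and 0.26, on opposite sides of 0. Members were lower in the Cy5 than in the Cy3 orientation in 75.4% to 92.8% of cases over the 6 groups. Over all ORFs this share was 49.7% to 52.1%, with medians between -0.09 and 0.01. The ratios of a group had the same quantiles on each array, so a shift of all ORFs by dye could not show. Single ORFs outside the members differed by dye too. Over all ORFs, arrays of opposite orientation correlated from -0.759 to -0.662 in pretreated wild type cells and from 0.598 to 0.735 in acutely treated cells. Each group held both orientations equally, so a dye effect of 1 size throughout a group cancels in its mean.

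The fall on acute treatment was found in both orientations. On the acute arrays 69 and 69 members were below 0 with treated RNA in Cy5, and 60 and 60 with it in Cy3. In all, 57 of 69 (82.6%) were below 0 on each of the 4 arrays, against 33% of all ORFs. The acute minus adapted difference had a median of -1.20 between Cy5 arrays and -0.82 between Cy3 arrays, and was below 0 for 69 of 69 members in both. Both acute arrays lay below both adapted arrays for 67 members with Cy5 and for 64 with Cy3 (97.1% and 92.8%), where 45.8% and 37.1% of all ORFs did so.

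**Figure D3:**
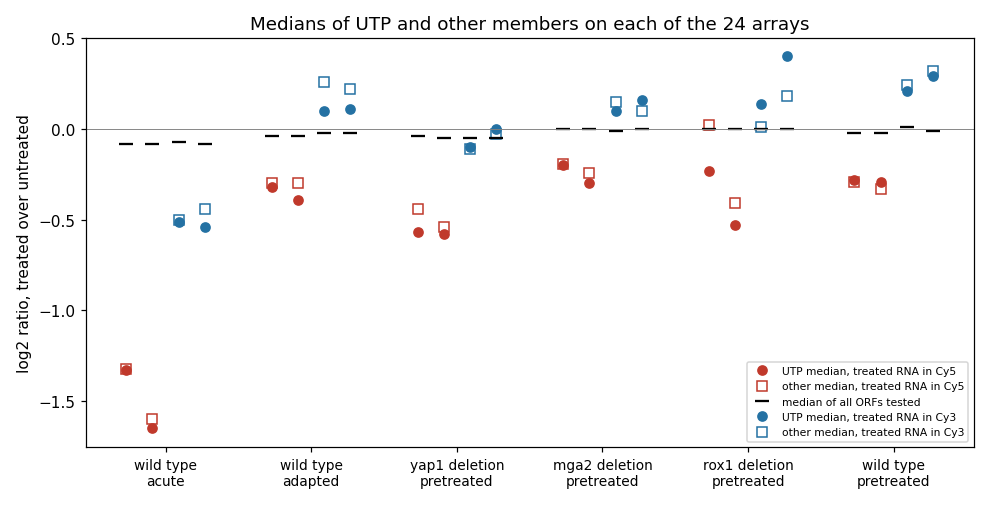
Median log2 ratio of the 18 UTP members (filled circles) and of the 51 other tested members (open squares) on each of the 24 arrays, red where the treated RNA was Cy5 and blue where it was Cy3, with the median of all ORFs as a black dash. UTP and other medians lie close together on most arrays, the Cy5 arrays lie below the Cy3 arrays except for 1 rox1 median of other members (0.02, against 0.01 on a Cy3 array), and the acute arrays lie lowest in either dye.

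The medians of UTP members and of the others lay close together on the acute arrays. On the 4 acute arrays the UTP median was -1.33, -1.65, -0.51 and -0.54, against -1.32, -1.60, -0.50 and -0.44 for the other members, a UTP minus other difference of -0.04 ± 0.04 (SD, n = 4 arrays). The medians of the fitted values were -1.17 for UTP and -0.95 for other members, a wider gap than on any 1 array, and that of the other members was -1.09 without the exosome subunits and the DEAD-box proteins of mRNA. Lowered were 18 of 18 UTP members and 49 of 51 others. In adapted cells the difference was -0.10 ± 0.06 and below 0 on each array, from -0.17 to -0.02. It was -0.03 ± 0.08 in the yap1, -0.02 ± 0.05 in the mga2 and -0.00 ± 0.22 in the rox1 deletion strain, and -0.00 ± 0.03 in pretreated wild type cells. The rox1 mean hid a split by dye, with 0.13 and 0.22 on Cy3 arrays and -0.25 and -0.12 on Cy5 arrays. No test of these differences was made, since members are not replicates of a condition. They were also chosen with earlier results of these data known.

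With the mild dose given before the high one, the fitted values of the members lay between -0.47 and 0.20. In adapted cells 2 of 69 members were lowered (2.9%) and none raised, against 7.27% of all ORFs lowered and 6.29% raised, and the member median was -0.05. UTP22 read -0.34, -0.49, -0.13 and -0.35 (fitted -0.33 ± 0.09, adjusted p = 0.0132). DBP2 read -0.32, -0.56, -0.53 and -0.46 (fitted -0.47 ± 0.13, adjusted p = 0.0233). Both were below 0 on every array, but neither call held when an array was left out: UTP22 missed the threshold without adapted replicate 3 or 4 (adjusted p = 0.0629 and 0.167), and DBP2 without replicate 2, 3 or 4 (adjusted p = 0.109, 0.0814 and 0.0859). The count was 0 without the dye term, 4 over the wider set of ORFs, 11 with only the adapted arrays in the fit and 6 where each group had its own dye term.

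The acute and adapted protocols end with the same dose, and 64 of 69 members were lower after the acute one (92.8%, against 32% of all ORFs), with a median difference of -0.99. The largest differences were those of DBP2 (-2.71 ± 0.19, adjusted p = 7.52e-11), NOP13 (-2.06 ± 0.29, adjusted p = 2.33e-06), RRP5 (-2.03 ± 0.17, adjusted p = 1.3e-09) and DBP3 (-1.99 ± 0.14, adjusted p = 1.28e-10). DBP3 was near 0 on each adapted array, at 0.05, -0.04, -0.25 and -0.13, while NOP13 was near 0 only in its mean, from 0.79 and 0.63 on Cy5 arrays and -0.83 and -0.60 on Cy3 arrays. The 5 members that did not pass were UTP7, RRP7, RRP4, RRP43 and RRP45, with differences from -0.54 to -0.08.

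In pretreated wild type cells no member passed by limma, and 0.389% of all ORFs were lowered and 0.617% raised. At an unadjusted p under 0.05 there were 5 of 69 members (7.25%), against 9.03% of all ORFs. With only the 4 pretreated arrays in the fit, 22 members passed, 6 raised and 16 lowered. The share of all ORFs that passed in that fit is not given, so this count is not read as a result about the members. The fitted values ran from -0.22 to 0.21. Means near 0 again joined arrays that disagreed: UTP4 read 0.75 and 0.75 with treated RNA in Cy3 and -0.95 and -1.01 with it in Cy5, for a fitted -0.12 ± 0.14. Between adapted and pretreated cells no member passed by limma (0.0686% of all ORFs were lower and 0.434% higher in adapted cells). At an unadjusted p under 0.05 there was 1 member (1.45%), against 10.6% of all ORFs. That member was DBP2, with a difference of -0.55 (adjusted p = 0.271). It was named after its value was seen.

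Of the 3 deletion strains, 1 had members past the threshold on its pretreatment arrays. Without YAP1, which encodes the main transcription factor of the yeast peroxide response, 38 of 69 members were lowered (55.1%, against 20.6% of all ORFs) and none raised, with a median of -0.31 where that of all ORFs was -0.07. Below 0 were 68 members, and 26 of them (37.7%) on each of the 4 arrays, against 25.2% of all ORFs. The medians by orientation were -0.53 with treated RNA in Cy5 and -0.07 with it in Cy3. The count depended on the arrays and the fit: it was 20 without yap1 replicate 3, 24 without replicate 4, 24 with arrays centred on their medians and 11 without the dye term, but 43 without the rox1 arrays, 57 with only the yap1 arrays in the fit and 50 where each group had its own dye term.

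By role, 6 of 6 UtpA and 4 of 4 UtpB members, 18 of 26 60S factors (69.2%), 3 of 4 snoRNP core proteins, RRP5, RRP12 and DBP2 were lowered in the yap1 deletion strain. Of the 8 other UTP members UTP20 and UTP22 were lowered (25%), and of the 10 40S factors without a UTP name DBP8 and NOP9 (20%). These shares were near the 20.6% of all ORFs, but all 8 and all 10 fitted values were below 0. Their medians were -0.27 and -0.24, against -0.31 for UtpB and -0.07 for all ORFs, so the roles differed more in calls than in medians. None of the 7 exosome subunits was lowered, and their median was -0.08. Differences between roles were not tested. DBP8 fell by 0.83 ± 0.10 or 1.78-fold (adjusted p = 9.94e-07), DBP2 by 0.83 ± 0.13 (adjusted p = 5.14e-05), DBP3 by 0.60 ± 0.10 (adjusted p = 8.2e-05) and NOP13 by 0.57 ± 0.21 (adjusted p = 0.0333). Each was below 0 on 4 of 4 arrays. NOP13 missed the threshold without yap1 replicate 1 (adjusted p = 0.154) or 2 (0.214).

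Set against pretreated wild type cells, 8 of 69 members had a lower treated-to-untreated ratio in the yap1 deletion strain and none a higher one (11.6% lower, against 6.88% of all ORFs lower and 9.56% higher). The median difference was -0.25, and 67 of the differences were below 0. The median was -0.21 between arrays with treated RNA in Cy5 and -0.30 between those with it in Cy3, where the medians of all ORFs were -0.03 and -0.04. Both yap1 arrays lay below both wild type arrays for 46 members with Cy5 (66.7%, against 43.2% of all ORFs) and for 50 with Cy3 (72.5%, against 42.7%).

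DBP2 read -0.42, -0.75, -1.10 and -1.04 without YAP1, against 0.49, 0.41, -0.20 and -0.35 in wild type cells, with no overlap (difference -0.92 ± 0.19, adjusted p = 0.00188). DBP8 read -0.23, -0.53, -1.27 and -1.30 without YAP1, against -0.27, -0.10, 0.16 and 0.16 in wild type cells (difference -0.82 ± 0.14, adjusted p = 0.000296). Its groups overlapped, but not among arrays of 1 dye orientation, since yap1 replicates 1 and 2 and wild type replicates 3 and 4 had treated RNA in Cy5. NOP7 read -1.21, -1.38, 0.06 and 0.40 without YAP1, against 0.48, 0.52, -0.35 and -0.55 in wild type cells (difference -0.56 ± 0.17, adjusted p = 0.031). Here too the groups overlapped over all arrays and did not within a dye.

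NOP1 read -0.50, -0.44, -0.74 and -0.52 without YAP1, against 0.24, 0.21, -0.17 and -0.27 in wild type cells (difference -0.55 ± 0.16, adjusted p = 0.0224). DBP3 read -0.34, -0.62, -0.84 and -0.60 without YAP1, against -0.22, -0.13, 0.10 and -0.00 in wild type cells (difference -0.54 ± 0.14, adjusted p = 0.0123). Neither gene's groups overlapped. NSA2, a 60S factor, had a difference of -0.53 ± 0.16 (adjusted p = 0.0269), UTP18 one of -0.45 ± 0.14 (adjusted p = 0.0319) and RRP8 one of -0.36 ± 0.12 (adjusted p = 0.0486). UTP18, the only UTP member of the 8, was between -0.56 and -0.13 without YAP1 and between 0.07 and 0.26 in wild type cells. The count of 8 fell to 2 without yap1 replicate 3, to 4 without yap1 replicate 4 or wild type replicate 1, and to 3 without wild type replicate 2. It was 1 without the dye term, but 13 without the rox1 arrays, 22 with only the arrays compared and 26 with a dye term per group.

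**Figure D4:**
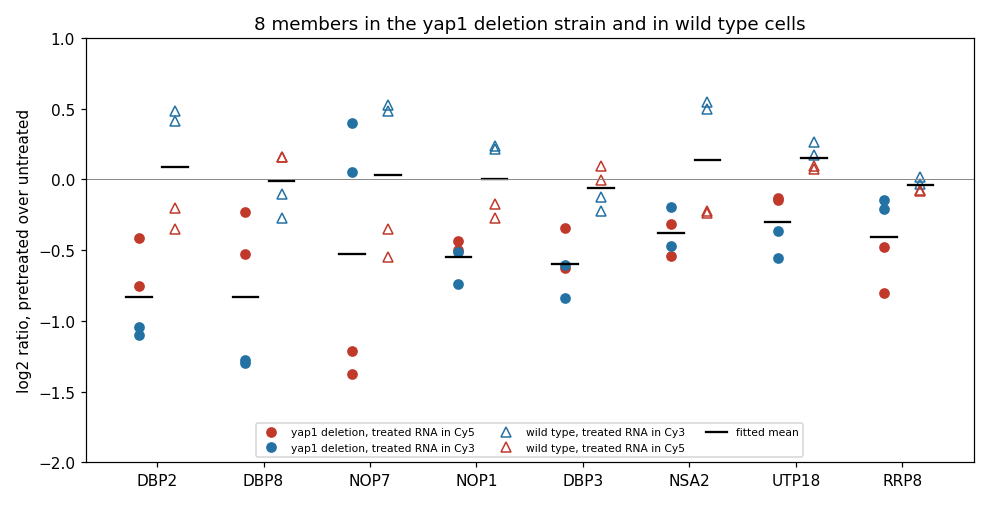
Log2 ratio of pretreated over untreated cells on each array for the 8 members whose ratio was lower in the yap1 deletion strain (filled circles) than in wild type cells (open triangles), red where the treated RNA was Cy5 and blue where it was Cy3, with the fitted mean as a bar. The groups of DBP2, NOP1, DBP3, UTP18 and RRP8 do not overlap, and within either dye the yap1 values of DBP8 and NOP7 lie below those of wild type cells.

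Without MGA2, which encodes a membrane-bound regulator of the fatty acid desaturase gene, no member passed by limma (0% of all ORFs were lowered and 0.0229% raised) and 0 had an unadjusted p under 0.05, against 2.4% of all ORFs. The fitted values ran from -0.17 to 0.10, and 56 of 69 were below 0 (81.2%, against 55.8% of all ORFs). Their median was -0.06, where that of all ORFs was -0.01. Without ROX1, the repressor of hypoxic genes, no member passed (0.0686% of all ORFs were lowered and 0.0229% raised) and 2 had an unadjusted p under 0.05 (2.9%, against 6.75% of all ORFs), with fitted values from -0.33 to 0.31. Below 0 were 45 of 69 (65.2%, against 50.5% of all ORFs), with a median of -0.04. In the difference from wild type cells no member passed by limma for mga2 (0% of all ORFs were lower and 0.0229% higher), and 1 had an unadjusted p under 0.05 (1.45%, against 2.22% of all ORFs). None passed for rox1 either (0.915% of all ORFs were lower and 0.526% higher), and 3 had an unadjusted p under 0.05 (4.35%, against 11.1% of all ORFs).

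Most other genes of ribosome synthesis, taken from lists and not by name, were lowered by acute treatment as well, where 41.3% of all ORFs were. All 44 other small subunit factors were lowered (median -1.07), among them the rRNA acetyltransferase KRE33 (-1.88 ± 0.10) and the U3 protein SNU13 (-1.72 ± 0.09). Of 53 other 60S factors 52 were lowered (median -1.19), among them MAK21 (-1.93 ± 0.28) and NIP7 (-1.81 ± 0.12). Of 15 snoRNP and rRNA modification genes 14 were lowered (median -1.23), led by SRP40, a nucleolar chaperone, at -2.10 ± 0.10, and SNU13.

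The RNA polymerase I list was lowered in full, 15 of 15 with a median of -0.91, led by its 2 largest subunits, RPA135 (-2.24 ± 0.14) and RPA190 (-2.01 ± 0.20). Of the RNA polymerase III genes 12 of 19 were lowered (63.2%), among them RPC31 (-1.61 ± 0.07) and RPC34 (-1.21 ± 0.13), and 1 was raised, the polymerase III repressor MAF1 (0.32 ± 0.08). Of the other exosome subunits and cofactors 10 of 13 were lowered, led by the helicase MTR4 (-1.98 ± 0.08) and the ring subunit MTR3 (-0.79 ± 0.11), and the cytoplasmic exonuclease XRN1 was raised (0.25 ± 0.08). Of 9 regulators of ribosome biogenesis genes 3 were lowered (33.3%, below the 41.3% of all ORFs), TOD6 and RAP1 (both -1.19) with the largest values, and STB3, a repressor that binds the RRPE element, was raised (0.67 ± 0.13). MAF1, XRN1 and STB3 were named after their values were seen.

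In the yap1 deletion strain, where 20.6% of all ORFs were lowered, the lists of other 40S and 60S factors, snoRNP genes and RNA polymerase I had 14 of 44 (31.8%), 27 of 53 (50.9%), 9 of 15 (60%) and 9 of 15 (60%) genes lowered. The RNA polymerase III, exosome and regulator lists, with 5 of 19 (26.3%), 2 of 13 (15.4%) and 2 of 9 (22.2%), lay near or below the share of all ORFs. In adapted cells, where 7.27% of all ORFs were lowered and 6.29% raised, 5 genes of all the lists passed. MTR4 (-0.27, 1 of 13 in its list), RAP1 (-0.41, 1 of 9) and the polymerase I initiation factor RRN9 (-0.25, 1 of 15) were lowered. ECM16 (0.25, 1 of 44), a helicase of the processome, and YVH1 (0.31, 1 of 53), a phosphatase of late 60S assembly, were raised. No gene of the snoRNP or RNA polymerase III lists passed. RRN9, ECM16 and YVH1 were named after their values were seen.

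On the chromosomes, 2 pairs of members are direct neighbours. UTP9 and RIX1 stand on the same strand and had acute values of -0.91 and -1.20. The convergent pair of RRP15 and NOC4 had -0.50 and -1.24. Overlap between the transcripts of a pair was not checked.

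The members kept much of their order between the 2 groups in which they were lowered. Across the 69 members, which share arrays and are not independent, the acute and the yap1 deletion values correlated with a Pearson r of 0.764 (Spearman rho 0.748), and 0.719 without DBP2, where all ORFs gave 0.797. The acute values correlated with the adapted ones at 0.469 (0.329 without DBP2; all ORFs 0.492) and with the pretreated ones at 0.098 (all ORFs 0.0982). Brighter members had lower acute values, with r = -0.383 between mean log2 intensity and the acute value, against -0.137 over all ORFs, and the part of intensity in the order of the members was not tested.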

How the data were processed

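The authors scanned the arrays with GenePix or ScanArray instruments and deposited 1 intensity per ORF and channel after background and quantile normalization, with spots merged in a way not stated. Probe positions and a genome build are not given in the sources used here. The log2 ratio of treated over untreated intensity was taken per ORF and array, with no pseudocount, filter or further normalization. Names were matched to RefSeq (R64) locus tags for 5751 ORFs. ORFs with values on at least 3 of 4 arrays in every group were fitted (4373) with limma 3.58.1 in R 4.3.3, with a mean per group and 1 dye term per ORF shared by all groups (17 residual degrees of freedom), in 11 two-sided comparisons. DBP1 was fitted on wild type arrays only. Labels give 45 min for the pretreatment, where the methods imply 1 h. The design text calls the arrays biological replicates, and precision is limited by their number. Alternatives were another dye term or none, centring, loess, a filter on dim ORFs, other sets of arrays or ORFs, a replicate block and each array left out.

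Named are the members farthest from and nearest to 0 on acute treatment, the extremes of each role, and members that passed elsewhere (all where up to 12, otherwise the 4 largest). The farthest were taken only from members past the threshold with the same sign on 4 of 4 acute arrays. Their agreement in sign across these arrays was therefore set by the choice. Members, roles and lists were chosen with earlier results of these data known.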

Additional observations from a re-analysis of the deposited data

Results flagged for a closer look

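NUG1 was flagged for an array far from the other 3 in acutely treated cells, where it read -1.76, -1.80, -1.75 and -1.37, with replicate 4 nearest 0. It was 1 of 57 groups of 4 values tested in this way, and chance flags about 1 in 20.

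The difference between yap1 deletion and wild type cells, tested as a contrast of the pretreatment ratios, flagged 8 members: DBP2 (-0.92), DBP8 (-0.82), NOP7 (-0.56), NOP1 (-0.55), DBP3 (-0.54), NSA2 (-0.53), UTP18 (-0.45) and RRP8 (-0.36). DBP2 passed under all 16 alternatives and DBP8 under 15 of 16, whereas RRP8 passed under 4 of 16.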

How the results depend on the processing

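All counts are of members past the threshold. Shares of all ORFs under the alternatives, here and above, are not given, so a higher count is not read as a result about the members. On acute treatment the count stayed between 58 (no dye term) and 68, and between 63 and 68 with an array left out. For acute minus adapted it was 48 without a dye term, and 60 to 65 with an array left out. With a dye term fitted per group the count was 1 for pretreated, 6 for adapted, 1 for rox1, 1 for adapted minus pretreated, 2 for rox1 minus wild type and 26 for yap1 minus wild type. With only the arrays compared in the fit it was 22 for pretreated (6 raised, 16 lowered), 11 for adapted and 22 for yap1 minus wild type. Without a dye term it was 0 for adapted, 11 for yap1 and 1 for yap1 minus wild type. For yap1 itself a dye term per group gave 50 and its own arrays alone 57. The wider set of ORFs gave 4 for adapted, and centred arrays 24 for yap1. With an array left out the count was 0 to 2 for adapted, 20 to 31 for yap1 and 2 to 8 for yap1 minus wild type, and 0 throughout for pretreated, mga2, rox1, adapted minus pretreated and the mga2 and rox1 differences from wild type. Without the 4 rox1 arrays, an alternative chosen after seeing the data, yap1 minus wild type gave 13. The cause of these changes was not tested. None of the members whose own values were recomputed changed sign. The UTP minus other difference, near 0 in rox1 and pretreated wild type arrays, did: with an array left out it ran from -0.08 to 0.08 and from -0.02 to 0.01 in these.

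Replicate numbers were not taken to pair the samples. Residuals of arrays with the same number correlated from -0.652 to 0.641 between groups. Arrays with different numbers were not compared, and replicates 1 and 2 of each group shared a dye orientation. This range therefore cannot show whether samples were paired. With the number as a replicate block the count was 35 for yap1, and the other counts were as without it (67 for acute, 64 for acute minus adapted, 8 for yap1 minus wild type, 2 for adapted).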
